A study of Mus musculus with 27 samples.

Results

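The comparison asked whether bicuculline changes how the RNA of each gene is divided between the nucleus and the cytosol when transcription is blocked. It rests on 12 of the 27 polyadenylated-RNA libraries of the series: nucleus and cytosol, unstimulated and with bicuculline, each with the replicate numbers 1, 2 and 3. The cells were wild type mouse primary cortical cells, taken from embryos at day 16.5 and grown for 14 days, a mixed culture of neurons and glia. All 12 libraries, the unstimulated ones included, came from cells that had 1 µM triptolide for 3 h, which blocks transcription initiation. Bicuculline, an antagonist of GABA-A receptors that raises firing in such cultures, was given at 20 µM for 1 h in 1 of the 2 states. For each replicate number the change of log2(FPKM + 0.5) with bicuculline in the cytosol was subtracted from that in the nucleus, and this difference is called the interaction. A positive interaction means that the nuclear share of a gene's RNA was higher with bicuculline and a negative one that it was lower. Genes reaching an FPKM of 1 in 3 or more of the 12 libraries were taken, which are 14091 of the 59489 entries of the table. The labels do not say that the replicate numbers are separate cultures, so the p-values measure only the spread between these samples.

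Messenger RNAs are made and spliced in the nucleus and leave it through nuclear pores once processed. In neurons many polyadenylated transcripts stay in the nucleus with an unspliced intron and can be spliced and released after a stimulus, which needs no new transcription. The kinases of the CLK family, which phosphorylate splicing factors of the SR family, carry such introns in their own transcripts. Messages for secreted and membrane proteins are, in contrast, translated at the endoplasmic reticulum, whose membrane is continuous with the outer envelope of the nucleus. Each FPKM value sums reads over a gene, so a spliced and an intron-containing transcript cannot be told apart here. Each library was also scaled to its own total, so an interaction compares shares of nuclear and cytosolic RNA and not amounts per cell. Fewer cells of a type and less RNA per cell cannot be told apart in such bulk samples either.

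The 12 libraries held about 67400000 to 88700000 fragments, a depth inferred from the spacing of low values. Between 13472 and 13911 genes reached an FPKM of 1 in nuclear libraries and 12056 to 12449 in cytosolic ones. RNAs encoded by mitochondria made up 9.59 to 12.5% of the summed FPKM in the nuclear and 8.90 to 12.3% in the cytosolic libraries. The nuclear fraction thus held mitochondrial RNA, at shares like those of the cytosolic one. These values do not measure other RNA from outside the nucleus. The defining markers of excitatory neurons were present in all 12 libraries, summing to 698 to 905 FPKM in bicuculline-treated nuclei and 712 to 819 FPKM in unstimulated nuclei. Those of microglia summed to at most 12.5 FPKM, and those of vascular and mesenchymal cells to at most 2.49 FPKM.

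Replicate 2 stood apart from the other two in this comparison. The spread of the nucleus to cytosol ratio over genes, as an SD in log2, went with bicuculline from 0.743 to 0.573 in replicate 1, from 0.753 to 0.599 in replicate 3 and from 0.722 to 0.749 in replicate 2. Genes with more than 2-fold nuclear enrichment in the unstimulated libraries of the other replicates had a median interaction of -0.42 in replicate 1 and -0.47 in replicate 3, beside 0.00 in replicate 2. Across genes, the interaction of replicate 1 correlated with that of replicate 3 (r = 0.49 over 14091 genes), while replicate 2 correlated with neither (r = -0.03 with replicate 1 and -0.02 with replicate 3). Each of these values is across genes, which are not independent and share the 4 libraries of their replicate. Genes with more than 2-fold cytosolic enrichment, of which there were 58 to 63, had medians of 0.33, 0.16 and 0.15 in replicates 1, 2 and 3. The medians over all genes were -0.08, -0.05 and -0.18, so the like values of replicates 2 and 3 stand over different baselines. The spread of the ratio was thus narrower after bicuculline in replicates 1 and 3 and not in replicate 2, and the part of this in each result below was not tested beyond the values given.

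**Figure D1:**
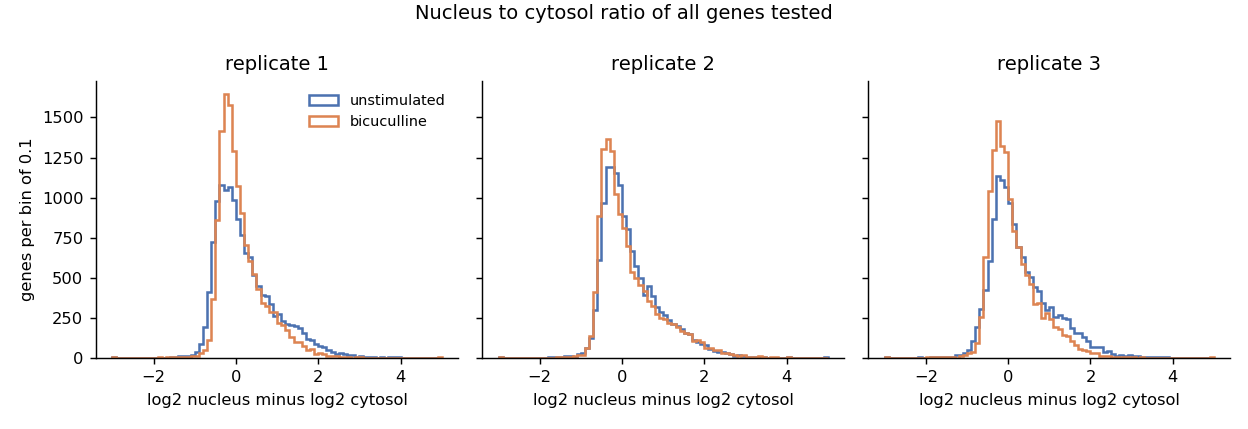
Number of genes (y axis, per bin of 0.1) against the log2 nucleus to cytosol ratio (x axis) for the 14091 genes tested, in each replicate, unstimulated (blue) and with bicuculline (orange). The bicuculline distribution is narrower than the unstimulated one in replicates 1 and 3 (SD 0.573 and 0.599) and not in replicate 2 (SD 0.749). Values beyond the axis are drawn at its ends.

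With bicuculline, 79 genes passed the test with a higher nuclear share (0.561% of all tested) and 252 with a lower one (1.79%), at a Benjamini-Hochberg adjusted p under 0.05 in limma fitted on the 3 interaction values of each gene. The interaction had the same sign in 3 of 3 replicates for all 331 called genes, beside 6200 of 14091 genes tested (44.0%). Its size was smallest in replicate 2 for 63 of the 79 and 194 of the 252, beside 6997 of 14091 genes tested. The calls were made on these same 3 values, so agreement in sign is favoured by the test and these counts are descriptions. The median over all genes was -0.11, and other scalings moved it to -0.03 (median-ratio) or -0.01 (quantile). With median-ratio scaling 255 genes passed, 180 higher and 75 lower, so the split between directions follows the scaling, although each of the 331 kept its sign. Of the 54 called genes that the naming rule gives, 29 passed with that scaling, 16 of 17 with a higher and 13 of 37 with a lower nuclear share. With the libraries fitted singly and replicate number as a block, 40 genes passed with a higher nuclear share (0.284%) and 117 with a lower one (0.830%). Without replicate 2 there were 2165 calls, and without replicate 1 there was 1. The default trend of limma, over the mean difference, was run first and gave 0 calls (smallest adjusted p = 0.0822). The fit reported here was chosen after that. The calls rest on moderating each gene's spread toward a trend over its level, with outlying genes allowed for. Without both, 0 genes passed in limma (smallest adjusted p = 0.0782), with 2663 at an unadjusted p under 0.05 and 3041 in the fit reported here. The change of separation common to all genes was then subtracted from each replicate. It was taken as the fitted line of that replicate's interactions on the mean unstimulated ratio of the other replicates. The offset of the line was removed too, so the median over all genes moved to -0.01. After this 0 genes passed in limma and 1618 had an unadjusted p under 0.05, while all 331 kept their sign.

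The 2 sets differed in how each fraction moved. For the 252 genes with a lower nuclear share, the median response was -0.26 in the nucleus and 0.33 in the cytosol, and 235 of them were lower in the nucleus and higher in the cytosol (93.3%, beside 40.9% of all genes). In the nucleus alone 60 of the 252 fell (1.00% of all genes fell there) and 0 rose in limma (1.21% of all genes rose), at an unadjusted p under 0.05 also 0. In the cytosol 146 of them rose (6.82% of all genes rose there) and 1 fell (0.305%). For the 79 genes with a higher nuclear share the medians were 0.31 in the nucleus and -0.13 in the cytosol. Of these, 32 rose in the nucleus and 12 fell in the cytosol. The interaction is built from both responses, so opposite signs are favoured by its construction and these counts are descriptions.

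The whole-cell libraries of the same treatments were not part of the interaction. There the median response was -0.03 for the 252 genes and 0.06 for the 79, beside 0.03 for all genes tested. In whole cells 1 of the 252 rose (0.369% of all genes) and 6 fell (0.227%), and 0 of the 79 passed in limma in either direction. At an unadjusted p under 0.05, 22 of the 252 were higher and 44 lower in whole cells, and 10 of the 79 higher and 2 lower, beside 1879 and 665 of all genes.

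**Figure D2:**
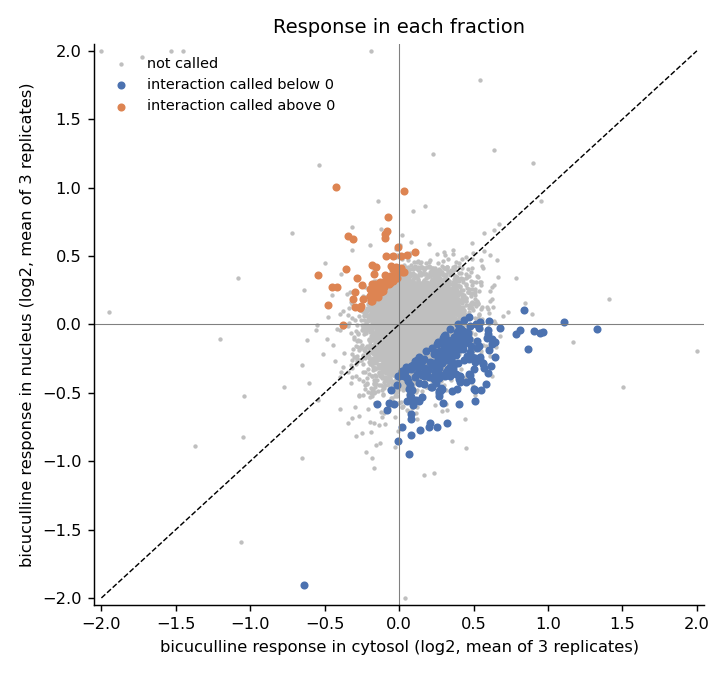
Response to bicuculline in the nucleus (y axis) against that in the cytosol (x axis), in log2 as the mean of 3 replicates, for all 14091 genes. The 252 genes with a called negative interaction (blue) lie below the dashed line of equal response and the 79 with a positive one (orange) above it. Values beyond 2 are drawn at the edge.

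The starting position of the 2 sets also differed. Unstimulated, the median log2 nucleus to cytosol ratio was 1.14 for the 252 genes and -0.71 for the 79, beside 0.06 for all genes. With bicuculline it was 0.55 and -0.24. Of the 252, 235 were nuclear-enriched before the stimulus (93.3%, beside 53.8% of all genes), and of the 79, 76 were cytosol-enriched (96.2%, beside 46.2%). The unstimulated ratio enters the interaction with a negative sign, so chance errors in it push both the same way and no test was made of this relation. GENCODE genes were matched by symbol to 179 of the 252, 59 of the 79 and 11296 of all genes tested. The 179 had a median of 17 introns in the transcript with most introns and 6755 bases of exons, beside 9 introns and 4704.5 bases for the 11296, and the 59 had 9 introns and 4636 bases. Entries without a gene symbol made up 26.2% of the 252 and 24.1% of the 79, beside 16.4% of all genes. Of these 85 entries, 64 overlap an annotated gene and 44 a protein-coding one, and 2 overlap a gene whose own entry also passed. Some are very short and lie close together, such as those on chromosome 1 at 132028006 to 132028033 and 132028571 to 132028594. The counts of called genes are thus counts of entries, which need not be separate genes.

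Among genes with a lower nuclear share, Gigyf1 (chromosome 5, 137518870 to 137527934 on mm10) had the largest interaction of the symbols named by rule. It encodes a scaffold protein of translational repression. Its cytosolic level was 0.682, 0.637 and 0.891 FPKM unstimulated and 2.80, 2.52 and 2.46 FPKM with bicuculline in replicates 1, 2 and 3, so the groups did not overlap. Its nuclear level was 9.05, 9.13 and 8.80 FPKM unstimulated and 7.51, 11.9 and 7.49 FPKM with bicuculline, higher in replicate 2 and lower in the others. The interaction was -1.36 ± 0.15 (SE, 3 replicates, adjusted p = 5.40e-04). The cytosolic rise passed by itself (log2 change 1.33, adjusted p = 0.00168) and the nuclear change did not (-0.03, adjusted p = 0.924). In whole cells it stood at 3.13, 5.30 and 4.24 FPKM unstimulated and 4.86, 5.30 and 4.86 FPKM with bicuculline.

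Zscan26 (chromosome 13, 21442183 to 21453727), a zinc finger protein with a SCAN domain, moved in both fractions. Nuclear levels were 12.9, 11.6 and 14.8 FPKM unstimulated and 9.47, 9.64 and 8.80 FPKM with bicuculline, a fall of 0.47 in log2 (adjusted p = 0.0201). Cytosolic levels were 5.98, 5.85 and 5.40 FPKM and then 8.60, 7.77 and 8.61 FPKM, a rise of 0.50 (adjusted p = 0.0159). Neither pair of groups overlapped. The interaction was -0.97 ± 0.13 (adjusted p = 0.00284), and -0.64 in replicate 2.

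Ppp1r12c (chromosome 7, 4481521 to 4501682), a regulatory subunit of myosin phosphatase, had one of the steadier values. Its nuclear levels went from 24.4, 22.0 and 22.8 FPKM to 19.7, 20.1 and 16.9 FPKM, and its cytosolic ones from 8.85, 7.78 and 9.32 FPKM to 14.7, 11.5 and 13.0 FPKM. The unstimulated and bicuculline libraries did not overlap in either fraction. The interaction was -0.85 ± 0.10 (adjusted p = 8.63e-04), with -0.66 in replicate 2 and -0.89 in replicate 3.

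The other 7 genes named with the largest negative interactions have varied roles. Sart3, which recycles splicing snRNPs, had an interaction of -0.95. Med23, a subunit of Mediator, had -0.85, and Gtf2ird1, a transcription factor of the TFII-I family, -0.84. Sirt7, a nucleolar deacylase, had -0.85. The rest were Stac3 (-1.02), known for calcium channel function in muscle, the guanine nucleotide exchange factor Arhgef1 (-1.01) and the cofilin phosphatase Ssh3 (-0.96). In Stac3, Arhgef1, Ssh3 and Sirt7 the value of replicate 2 was nearest to 0, at -0.33, -0.50, -0.30 and -0.41. With replicate number as a block over libraries, Arhgef1 (adjusted p = 0.0686), Ssh3 (0.0860) and Sirt7 (0.0541) no longer passed, and the other 7 of the 10 did. With median-ratio scaling Stac3 (adjusted p = 0.0566) and Ssh3 (0.0735) did not. Both were low in the unstimulated cytosol, at 0.375 to 0.491 FPKM (Stac3) and 0.502 to 0.547 FPKM (Ssh3), near the added 0.5. With 1 added instead, their interactions were -0.75 (adjusted p = 0.0675 in limma) and -0.71 (0.0929), and neither passed.

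**Figure D3:**
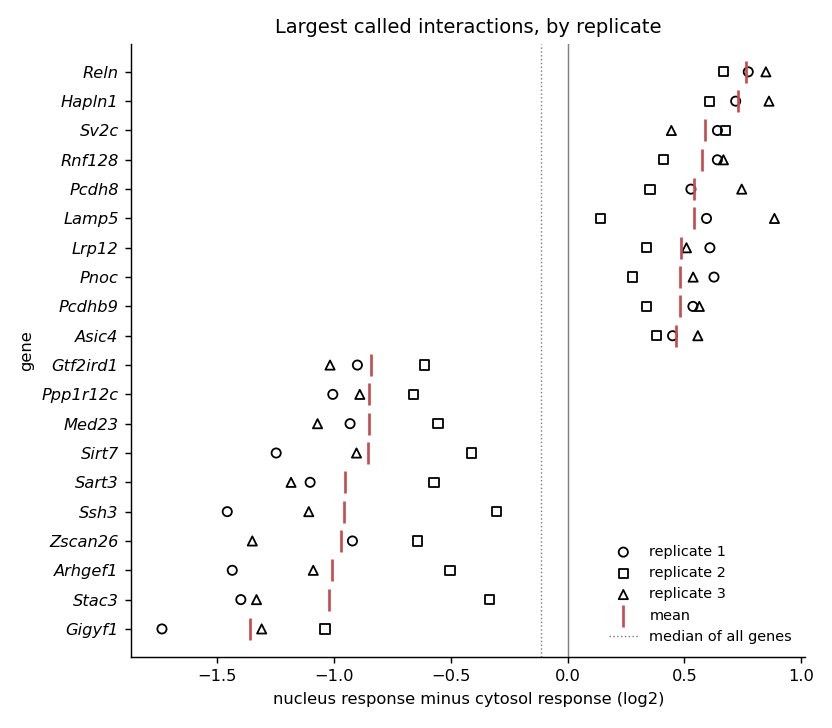
Interaction (x axis, log2) of the 10 largest called values in each direction among genes with a symbol and a mean FPKM of at least 5 (y axis), with a symbol for each replicate and a red bar for the mean. All 3 replicates of each gene lie on the same side of 0 and of the median over all genes (-0.11, dotted), with replicate 2 nearest to 0 for most. The same sign in 3 replicates was required in choosing these genes.

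Among the genes with a higher nuclear share, Reln (chromosome 5, 21884454 to 22344706) led. It encodes reelin, a secreted glycoprotein that guides neuronal layering and is made by subsets of cortical neurons. Nuclear levels were 13.4, 15.6 and 14.6 FPKM unstimulated and 22.5, 24.1 and 24.1 FPKM with bicuculline, with no overlap. Cytosolic levels were 33.2, 37.2 and 36.6 FPKM and then 32.2, 35.8 and 33.0 FPKM, which overlapped. The interaction was 0.76 ± 0.09 (adjusted p = 8.63e-04), with 0.77, 0.67 and 0.85 in the 3 replicates. The nuclear rise was 0.68 (adjusted p = 1.27e-04), the cytosolic change -0.08 (adjusted p = 0.387) and the whole-cell change 0.15 (adjusted p = 0.246).

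Hapln1 (chromosome 13, 89539796 to 89611832), which links hyaluronan to proteoglycans in the matrix around neurons, behaved alike. Its nuclear levels rose from 21.0, 20.9 and 25.2 FPKM to 36.7, 29.4 and 39.1 FPKM, and its cytosolic levels were 42.5, 39.9 and 49.0 FPKM and then 44.8, 36.6 and 41.5 FPKM. The nuclear groups did not overlap and the cytosolic ones did. The interaction was 0.73 ± 0.09 (adjusted p = 0.00115). Both genes had a higher FPKM in the cytosol than in the nucleus, with log2 nucleus to cytosol ratios of -1.27 (Reln) and -0.96 (Hapln1) before the stimulus.

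The next were Sv2c (0.59), a synaptic vesicle glycoprotein, Rnf128 (0.57), a membrane-bound ubiquitin ligase, and the protocadherin Pcdh8 (0.54). Lamp5, a membrane glycoprotein of neurons, had 0.54, but its replicates gave 0.59, 0.14 and 0.89. Its nuclear level in replicate 2 was 11.7 FPKM unstimulated and 10.5 FPKM with bicuculline, against 16.4 and 23.2 in replicate 1. Lower in the order were Lrp12 (0.48), a receptor of the LDL receptor family, Pnoc (0.48), the precursor of the neuropeptide nociceptin, the clustered protocadherin Pcdhb9 (0.48) and Asic4 (0.46), of the acid-sensing channel family. With replicate number as a block, Rnf128 (adjusted p = 0.0525), Lamp5 (0.317), Pnoc (0.0658) and Asic4 (0.0644) no longer passed, and Lamp5 did not pass with median-ratio scaling either (0.0623).

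**Figure D4:**
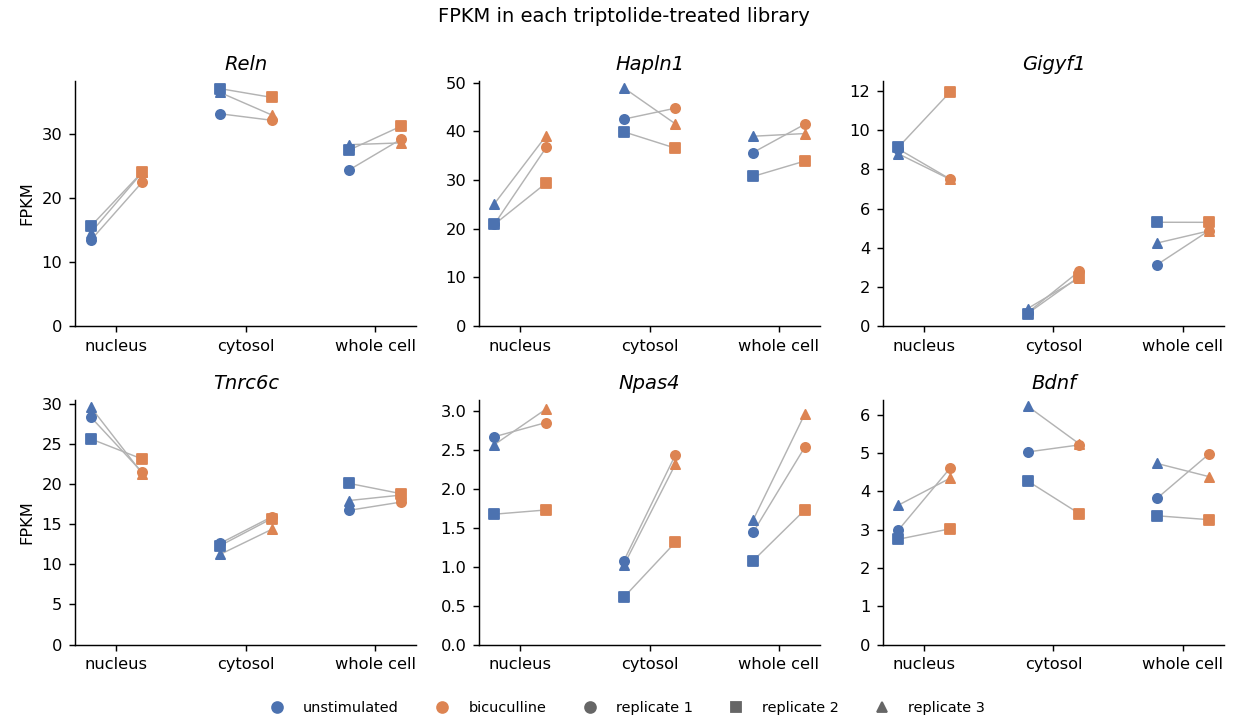
FPKM (y axis, from 0) of 6 genes in every triptolide-treated library, by fraction (x axis), with unstimulated libraries on the left of each pair and bicuculline ones on the right, joined by replicate number. Reln and Hapln1 differ in the nucleus, Gigyf1 and Npas4 in the cytosol, and Tnrc6c in both; the Bdnf libraries overlap in both fractions.

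The immediate early genes, which are transcribed first after a stimulus, showed little interaction as a list. Of 18 tested, 1 passed, beside 331 of 14091 genes. The median was -0.06 (0.01 with median-ratio scaling), beside -0.11 over all genes. Their median response was 0.39 in the nucleus, 0.47 in the cytosol and 0.44 in whole cells. Fos, an AP-1 subunit, rose in each fraction by like amounts, with a log2 change of 0.73 in the nucleus (adjusted p = 0.00107), 0.67 in the cytosol (adjusted p = 0.00756) and an interaction of 0.07 (adjusted p = 0.790). Its nuclear levels were 2.90, 1.98 and 3.12 FPKM and then 5.27, 3.70 and 5.30 FPKM. Fosb (interaction 0.28), Arc (0.06), whose protein acts at synapses, Egr1 (-0.10) and Nr4a1 (-0.29), both transcription factors, did not pass either, with adjusted p from 0.219 (Nr4a1) to 0.854 (Arc).

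The one immediate early gene that passed was Npas4 (chromosome 19, 4984354 to 4990316), a transcription factor that controls inhibitory synapses in response to activity. Its nuclear levels were 2.66, 1.67 and 2.56 FPKM unstimulated and 2.85, 1.73 and 3.02 FPKM with bicuculline, and these overlap. Its cytosolic levels went from 1.07, 0.605 and 1.02 FPKM to 2.43, 1.31 and 2.31 FPKM, with every bicuculline library above every unstimulated one. The interaction was -0.82, -0.68 and -0.69 in the 3 replicates (mean -0.73 ± 0.15, adjusted p = 0.0221, and 0.0167 with the block). The cytosolic rise was 0.84 (adjusted p = 0.00555), the nuclear change 0.11 (adjusted p = 0.714) and the whole-cell rise 0.62 (adjusted p = 0.0302). Here replicate 2 did not stand apart from the other two.

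Delayed activity genes follow the first wave. Of 18 tested, 1 passed, with a higher nuclear share (0.561% of all genes did): Vgf, a secreted neuropeptide precursor, at 0.46 (adjusted p = 0.0235, and 0.158 with the block). Bdnf (chromosome 2, 109674700 to 109727043), the neurotrophin of the receptor TrkB, had interactions of 0.50, 0.40 and 0.45 but did not pass (mean 0.45 ± 0.13, adjusted p = 0.0657, and 0.0442 with median-ratio scaling). Its nuclear levels were 2.99, 2.75 and 3.64 FPKM and then 4.60, 3.02 and 4.34 FPKM, and its cytosolic ones 5.03, 4.27 and 6.22 FPKM and then 5.21, 3.42 and 5.24 FPKM. Of the ERK feedback genes 0 of 12 passed in limma, with a median of -0.15. At an unadjusted p under 0.05, 1 of the 12 was lower, beside 2385 of 14091 genes.

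Among the 23 CLK kinases and SR proteins tested, 2 passed with a lower nuclear share (1.79% of all genes did). Their list median was -0.25, with 0.03 in replicate 2 and -0.03 with the common change of separation removed. Of 30 mRNAs known for detained introns, the nuclear transcripts described in the background, 4 passed, all lower, beside 1.79% of all genes. The list median of -0.30 was the lowest of the 24 pathway lists. The replicate medians of that list were -0.36, 0.04 and -0.67, so replicate 2 did not share the direction. With the common change of separation removed the median was -0.02, beside -0.01 over all genes. Clk4 (chromosome 11, 51263114 to 51281770) had nuclear levels of 22.2, 20.6 and 24.9 FPKM and then 17.5, 23.2 and 17.1 FPKM, which overlap. Its cytosolic levels went from 3.13, 2.74 and 3.09 FPKM to 4.72, 3.71 and 4.42 FPKM, which do not. The interaction was -0.69 ± 0.14 (adjusted p = 0.0329, and 0.0658 with the block).

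Clk1 (chromosome 1, 58410190 to 58424088), the paralogue of Clk4, was strongly nuclear, at 22.2, 21.2 and 27.3 FPKM in the nucleus and 1.72, 1.16 and 1.37 FPKM in the cytosol of unstimulated cells. With bicuculline the nuclear levels were 17.8, 25.7 and 17.4 FPKM and the cytosolic ones 2.21, 1.65 and 2.53 FPKM. Its interactions of -0.60, -0.11 and -1.34 did not pass (adjusted p = 0.187), although the cytosolic rise of 0.46 did (adjusted p = 0.0287). Pnisr, an SR-related protein, passed with -0.70 (adjusted p = 0.0346, and 0.0963 with the block). Ogt, which attaches O-GlcNAc to proteins and has a known detained intron, did not pass, with -0.61, 0.15 and -0.68. Gabbr1, a GABA-B receptor subunit, did not pass at 0.20.

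The other 2 members of the detained-intron list that passed encode TNRC6 proteins, the scaffolds that join Argonaute to the enzymes removing poly(A) tails. Tnrc6c (chromosome 11, 117654289 to 117763437) fell in the nucleus from 28.4, 25.7 and 29.7 FPKM to 21.5, 23.2 and 21.3 FPKM (log2 change -0.34, adjusted p = 0.0433). It rose in the cytosol from 12.6, 12.3 and 11.2 FPKM to 15.9, 15.7 and 14.4 FPKM (0.33, adjusted p = 0.0213). Neither pair of groups overlapped, and whole cells gave 0.01 (adjusted p = 0.927). Its interaction was -0.72, -0.48 and -0.81 (mean -0.67, adjusted p = 0.00284), and that of Tnrc6a was -0.79 (adjusted p = 0.0140). With Dicer1, which cuts microRNA precursors (-0.48, adjusted p = 0.0422, and 0.0540 with the block), 3 of 12 microRNA silencing factors passed, all lower, beside 1.79% of all genes. The list median was -0.24, with -0.49, -0.09 and -0.36 in the replicates. With the common change of separation removed it was -0.08, beside -0.01 over all genes.

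Factors of nonsense-mediated decay, which degrades transcripts with early stop codons and many with retained introns, gave 3 calls among 16, all lower, beside 1.79% of all genes. Smg1, the kinase of the pathway, had -0.57 (adjusted p = 0.0270, and 0.0545 with the block) and the endonuclease Smg6 -0.52 (adjusted p = 0.0354). Smg6 stood at 5.51, 5.76 and 5.19 FPKM in the unstimulated cytosol and at 7.52, 6.65 and 7.23 FPKM with bicuculline, without overlap. The list median was -0.11, equal to that of all genes. Of 60 chromatin regulators, with a list median of -0.19, 4 passed, all lower, beside 1.79% of all genes. They were the DNA demethylase Tet2 (-0.77), the histone methyltransferases Kmt2b (-0.64, adjusted p = 0.0528 with the block) and Kmt2c (-0.56), and the demethylase Kdm2a (-0.54). In 29 of the 60 the interaction was below 0 in all 3 replicates, beside 4763 of 14091 genes. The replicate medians of the 60 were -0.24, -0.02 and -0.35. With the common change of separation removed their median was -0.02, beside -0.01 over all genes.

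Of 62 spliceosome and hnRNP genes, 2 passed, both lower, beside 1.79% of all genes. These were the splicing regulators Celf1 (-0.42) and Rbfox2 (-0.40), and the list median was -0.07 (0.02 with median-ratio scaling). Of 237 zinc finger protein genes, 4 passed, all lower, a share near the 1.79% of all genes called lower, with a median of -0.19. They were Zfp868 (-0.56), Zfp609 (-0.49), Zfp512b (-0.49) and Zfp106 (-0.39). The median of the 237 was -0.003 in replicate 2, and -0.04 with the common change of separation removed (-0.01 over all genes). Celf1, Zfp868 and Zfp106 did not pass with the block (adjusted p = 0.0540, 0.0730 and 0.0540). Nuclear pore and RNA export genes gave 0 calls of 40 in limma, with a median of -0.14. At an unadjusted p under 0.05, 12 of the 40 were lower, beside 2385 of 14091 genes. The export factor Thoc1 had the largest value in that list at -0.79 (adjusted p = 0.141, and 0.0481 with the block). Long noncoding RNAs of the nucleus gave 0 of 12 in limma (2 at an unadjusted p under 0.05, both lower). Their median was -0.22 on the mean and 0.18 in replicate 2. Meg3, the most abundant of those named, stood at 798, 826 and 768 FPKM in unstimulated nuclei and at 608, 1265 and 623 FPKM with bicuculline, so its interaction differed in sign between replicates (-0.86, 0.38 and -0.28). Hosts of small nucleolar RNAs gave 0 of 14 in limma (5 at an unadjusted p under 0.05, all lower). Their median was -0.23, with 0.02 in replicate 2.

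Ribosomal protein genes, whose short transcripts are among the most abundant in the cell, had their lowest median in replicate 2, unlike the lists above. Of 78 tested, 7 passed, all lower (1.79% of all genes did), and 60 were below 0 in all 3 replicates, beside 33.8% of all genes. At an unadjusted p under 0.05 in limma, 52 were lower, beside 2385 of 14091 genes. Medians were -0.20, -0.37 and -0.16 in replicates 1, 2 and 3 and -0.24 on the mean. With median-ratio scaling the median was -0.14, beside -0.03 over all genes. With the common change of separation removed it was -0.17, beside -0.01 over all genes. The list lay at -0.26 in the nucleus and 0.01 in the cytosol. The summed FPKM was 6932 to 7567 in unstimulated and 5713 to 6562 in bicuculline-treated nuclei, which do not overlap, and 6897 to 7444 and 6793 to 7550 in the cytosol, which do. Rps12, of the small subunit, stood at 43.5, 47.7 and 37.5 FPKM in unstimulated nuclei and at 36.4, 30.1 and 31.2 FPKM with bicuculline (interaction -0.44, adjusted p = 0.0347). Rps20 had -0.41, Rpl37a -0.40 and Rps14 -0.38, and of these 4 only Rps14 passed with the block (adjusted p = 0.0472, the others 0.0511 to 0.0520). With median-ratio scaling their adjusted p lay between 0.0911 (Rpl37a) and 0.159 (Rps14), above the threshold of 0.05. These genes have many processed pseudogenes, and how the authors treated reads that map to several places is not given in the sources used here, so their levels are less certain than others. Nuclear-encoded genes of oxidative phosphorylation gave 0 calls of 78 in limma, with a median of -0.10 (0.00 with median-ratio scaling). At an unadjusted p under 0.05, 12 of the 78 were lower, a share near that of all genes (2385 of 14091).

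Lists of secreted and synaptic proteins lay on the other side of 0. The 29 neuropeptides, granins and secreted matrix proteins had a median of 0.18 (0.17, 0.20 and 0.25 in the replicates), beside -0.11 over all genes. Of the 29, 5 passed, all with a higher nuclear share, beside 0.561% of all genes. They were Reln, Hapln1 and Vgf, given above, Pcsk2, a protease that cuts neuropeptide precursors, at 0.40 (adjusted p = 0.0316), and the granin Chga at 0.36 (adjusted p = 0.0498, and 0.0528 with the block). With median-ratio scaling the median was 0.28, beside -0.03 over all genes. With the common change of separation removed it was 0.17, beside -0.01 over all genes. The list lay at 0.12 in the nucleus, -0.10 in the cytosol and -0.01 in whole cells. Endoplasmic reticulum chaperones had a median of 0.19 and 0 calls in limma among 24, with 16 above 0 in all 3 replicates, beside 1437 of 14091 genes. At an unadjusted p under 0.05, 12 of the 24 were higher, beside 656 of 14091 genes. Dnajb9 (0.32, adjusted p = 0.0925) and Sdf2l1 (0.32, adjusted p = 0.171) had the largest values. Heat shock proteins and chaperones of other compartments had a median of 0.04 and gave 0 calls of 24 in limma (1 higher at an unadjusted p under 0.05).

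Of 45 glutamatergic synapse genes, with a list median of 0.14, 4 passed with a higher nuclear share and 1 with a lower one, beside 0.561% and 1.79% of all genes. Those higher were the metabotropic glutamate receptors Grm7 (0.46, adjusted p = 0.0224, and 0.0589 with the block) and Grm5 (0.36), the NMDA receptor subunit Grin1 (0.39) and the AMPA receptor subunit Gria3 (0.36, adjusted p = 0.0485, and 0.0590 with the block). Grin1 rose in the nucleus from 99.2, 107 and 103 FPKM to 128, 121 and 137 FPKM, without overlap (0.32, adjusted p = 0.0461). Its cytosolic levels were 156, 168 and 187 FPKM and then 161, 159 and 167 FPKM, which overlap. The one lower was Dlg1 (-0.38, adjusted p = 0.0498, and 0.0528 with the block), a scaffold protein. Of 22 GABAergic synapse genes, 2 passed, both higher (0.561% of all genes did), and neither of the 2 passed with the block. Gabra2, a subunit of the GABA-A receptor, the target of bicuculline, had 0.34 (adjusted p = 0.0498, and 0.0556 with the block). In 14 of the 22 the interaction was above 0 in all 3 replicates, and in 0 below, beside 10.2% and 33.8% of all genes. The list median was 0.21. Voltage-gated channels had a median of 0.08, and 1 of 42 passed, a share near that of all genes (331 of 14091). It was the calcium channel subunit Cacnb4 (-0.47).

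**Figure D5:**
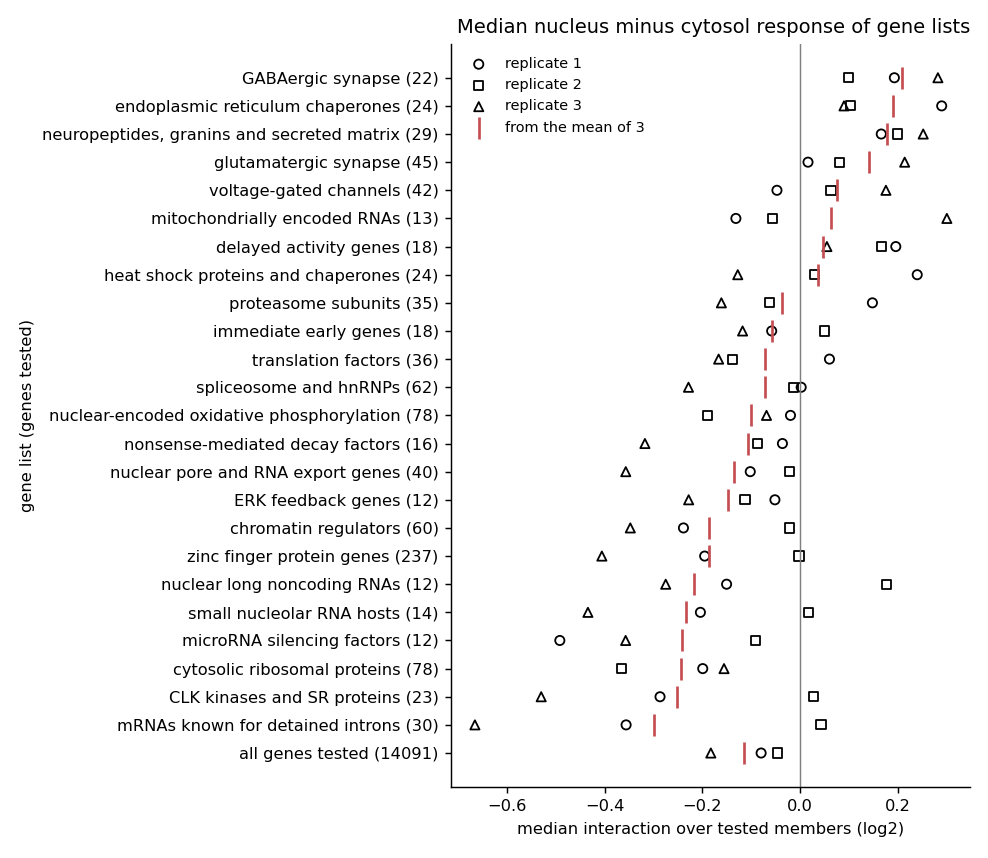
Median interaction (x axis, log2) over the tested members of each of the 24 pathway lists (y axis, with the number tested), in each replicate and for the mean of the 3 (red bar), with all genes tested at the bottom. The lists of secreted, endoplasmic reticulum and synaptic genes lie above 0 in all 3 replicates. Ribosomal protein genes lie below 0 in all 3, as do all genes tested and other lists, among them chromatin regulators. The detained-intron and CLK lists lie below 0 in replicates 1 and 3.

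Translation factors (median -0.07) and proteasome subunits (-0.04) gave 0 calls in limma among 36 and 35. At an unadjusted p under 0.05, 4 and 1 of them were lower, beside 2385 of 14091 genes. The medians of both lists changed sign with median-ratio scaling (0.03 and 0.06). Among the mitochondrially encoded RNAs 0 of 13 passed in limma (1 higher at an unadjusted p under 0.05, beside 656 of 14091 genes). Their replicate medians were -0.13, -0.06 and 0.30. Of the cell type markers, 1 of 9 tested for excitatory neurons passed, beside 331 of 14091 genes. It was Fezf2 (-0.69, adjusted p = 0.0480, and 0.0858 with the block). The list medians were 0.08 for excitatory and 0.01 for inhibitory neurons, -0.19 for astrocytes, -0.23 for the oligodendrocyte lineage and -0.37 for the 4 microglial markers tested. The summed markers of inhibitory neurons were 197 to 219 FPKM in unstimulated and 199 to 260 FPKM in bicuculline-treated nuclei, and those of astrocytes 713 to 853 and 648 to 775 FPKM, and both overlap. The part of cell composition in these results was not tested.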

How the data were processed

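Polyadenylated RNA of 12 libraries (nucleus and cytosol) and, beside them, 6 whole-cell libraries was used. The authors deposited 1 FPKM value per gene model and library, and the submitters' processing notes list STAR 2.4.0, SAMtools, Picard and FastQC with build mm10. Which program counted the reads, whether it used strand and what it did with reads of several positions is not given in the sources used here. Depth was estimated from the steps between low values of single-exon models (taken as steps of 0.5 fragments, on which 64.4 to 75.1% of low values lay), so whole reads were not recovered and no count test was run.

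The deposited values were taken as log2(FPKM + 0.5). For each replicate number the response (bicuculline minus unstimulated) in nucleus, cytosol and whole cells and the interaction were computed, and limma 3.58.1 in R 4.3.3 tested their mean over 3 replicates, with a robust fit and a variance trend over each gene's mean log2 level. limma's default trend, over the mean difference, was run first and gave 0 calls, and the trend over level was chosen after that. Calls were made at an adjusted p (Benjamini-Hochberg over all 14091 genes) under 0.05. Replicate numbers pair the libraries: deviations from group means of libraries with the same number correlated at 0.255 to 0.603 in 18 of 18 pairs. The script was tested on simulated data.

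The genes named are the 10 largest interactions in each direction among called genes that average an FPKM of 5 or more and have a full symbol and the same sign in 3 replicates, 12 further genes chosen by name, and up to 4 called members of each list (for a list with 0 called, the 2 largest). Some genes of this rule are not reported here, and counts include them. The comparison and the 24 pathway and 7 marker lists were chosen with earlier results of these data known. Entries without a symbol were matched by position to GENCODE M21, without regard to strand. Alternatives changed the pseudocount, filter, scaling, block, variance model and replicates. Summaries and figures used matplotlib 3.10.9, numpy 2.4.6 and pandas 2.3.3 under Python 3.11.15.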

Additional observations from a re-analysis of the deposited data

Results flagged for a closer look

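The response to bicuculline differed between nucleus and cytosol, by the test of the difference itself (limma with a trend over level, adjusted p under 0.05), for 331 of 14091 genes. That trend was chosen after limma's default trend, run first, gave 0 calls. With the common change of separation removed there were also 0 calls in limma. Among those named are genes with a lower nuclear share, with interactions in log2 of Gigyf1 (-1.36), Stac3 (-1.02), Arhgef1 (-1.01), Zscan26 (-0.97), Ssh3 (-0.96), Sart3 (-0.95), Sirt7 (-0.85), Med23 (-0.85), Ppp1r12c (-0.85), Gtf2ird1 (-0.84), Tnrc6a (-0.79), Tet2 (-0.77) and Npas4 (-0.73). The rest of them were Pnisr (-0.70), Fezf2 (-0.69), Clk4 (-0.69), Tnrc6c (-0.67), Kmt2b (-0.64), Smg1 (-0.57), Kmt2c (-0.56), Zfp868 (-0.56), Kdm2a (-0.54), Smg6 (-0.52), Zfp609 (-0.49), Zfp512b (-0.49), Dicer1 (-0.48), Cacnb4 (-0.47), Rps12 (-0.44), Celf1 (-0.42), Rps20 (-0.41), Rbfox2 (-0.40), Rpl37a (-0.40), Zfp106 (-0.39), Rps14 (-0.38) and Dlg1 (-0.38). A higher nuclear share was found for Reln (0.76), Hapln1 (0.73), Sv2c (0.59), Rnf128 (0.57), Pcdh8 (0.54), Lamp5 (0.54), Lrp12 (0.48), Pnoc (0.48), Pcdhb9 (0.48), Asic4 (0.46), Vgf (0.46), Grm7 (0.46), Pcsk2 (0.40), Grin1 (0.39), Grm5 (0.36) and Gabra2 (0.34). Each of these values had the same sign in 3 of 3 replicates, which the naming rule required or the test on the same 3 values favours. No explanation for them was tested.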

How the results depend on the processing

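The 54 named genes that passed kept their sign under all 16 alternatives that gave a value. Those that change only the filter, block or variance model leave the estimate itself unchanged, so its sign could not change there. The number passing depended on the setting: 49 with a filter of FPKM 1 in all 12 libraries, 29 with the replicate block and 29 with median-ratio scaling (16 of 17 higher and 13 of 37 lower). It was 13 with a replicate block within fraction, 10 without mitochondrially encoded RNAs, 7 with no replicate block and 6 with quantile normalization. It was 0 without replicate 1 and in the settings with 0 calls below. For the interaction (331 calls) the count was 157 with the replicate block, 8 with no replicate block, 53 with a replicate block within fraction, 705 with the stricter filter, 16 with quantile normalization, 31 without mitochondrially encoded RNAs, and 0 with no filter on low values, without trend and robust fitting (2663 at an unadjusted p under 0.05), with the trend over the mean difference (1916) and with the common change of separation removed (1618). The trend over the mean difference was the first fit run. The trend over level behind the counts reported, and the removal of the common change, were chosen after seeing the data. For the nucleus (311 calls) it was 40 with the replicate block, 1 with no replicate block, 102 with a pseudocount of 1, 110 with median-ratio scaling, 55 without mitochondrially encoded RNAs, 11 without trend and robust fitting and 0 with no filter (3509 at an unadjusted p under 0.05) or the trend over the mean difference (1682). For the cytosol (1004 calls) it was 10 with no replicate block, 17 with no filter, 122 with median-ratio scaling (83 higher and 39 lower), 32 with quantile normalization, 80 without trend and robust fitting and 0 with the trend over the mean difference (3668 at an unadjusted p under 0.05). For whole cells (84 calls) it was 3 with no replicate block, 167 with the stricter filter, 20 with median-ratio scaling, 11 with quantile normalization, 12 without mitochondrially encoded RNAs, 10 without trend and robust fitting and 0 with no filter (4290 at an unadjusted p under 0.05) or the trend over the mean difference (2102). Leaving out one replicate gave 1 (without replicate 1) to 2165 (without replicate 2) calls for the interaction, 139 (without replicate 1) to 807 (without replicate 2) for the nucleus, 42 (without replicate 3) to 1302 (without replicate 2) for the cytosol and 22 (without replicate 3) to 907 (without replicate 1) for whole cells, with 2 values left per gene. The other alternatives stayed within 1.5 times of the counts reported. With no filter 45119 entries were tested, and for the other changes the cause was not tested. Depth limits genes near an FPKM of 1, where 0.5 is a large part of the value.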

Other observations

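Among entries outside the naming rule, chosen after their values were seen, Ndnf, a secreted neuronal factor with a mean FPKM of 3.01, had an interaction of 0.86, and an entry without a symbol that overlaps it (chromosome 6, 65709793 to 65712321) had 0.99. App, the amyloid precursor, with the highest mean FPKM of the 79 genes with a higher nuclear share (682), had 0.41, with 0.49, 0.27 and 0.48 in replicates 1, 2 and 3.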
